A study of Bos taurus with 45 samples.

Results

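The comparison described here is that of CSF2 with vehicle among day 7 bovine blastocysts whose transferred part gave no pregnancy. Its members are the libraries labelled as not pregnant at day 30 with a total of at least 1000000 counts, which are 26 of the 45 libraries of the series, 12 from embryos cultured with CSF2 and 14 from embryos cultured with vehicle. The label gives 29 such libraries in all, 14 with CSF2 and 15 with vehicle. Among the libraries kept, the smallest total was 3906252 counts (CSF2 replicate 25). The 3 left out were CSF2 replicate 8 with 853817 counts and 502 genes read, CSF2 replicate 27 with 264574 counts and 62 genes read, and vehicle replicate 29 with 475278 counts and 136 genes read. A gene is called read in a library where it had 5 or more counts.

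All blastocysts came from in vitro fertilization with X-sorted sperm, so that they are taken to be female, with the sex of each embryo not checked here. From day 5 of culture the serum-free medium held either recombinant bovine CSF2 at 10 ng/ml or vehicle, and blastocysts were collected on day 7. Each blastocyst was cut by hand into demi-embryos, of which a single demi-embryo went to a recipient cow and its partner to RNA sequencing; after an uneven cut the lesser part was the one sequenced. Pregnancy was examined at day 30 and day 60. Each library is thus a part of 1 embryo, and replicates are embryos; the labels used here do not tell sires, recipients, culture dates or sequencing runs apart. The outcome was observed after the treatment, so the comparison is between treated and untreated embryos that shared an outcome.

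CSF2, colony stimulating factor 2 (also known as granulocyte-macrophage colony stimulating factor), is a cytokine that the cow's reproductive tract secretes and to which the early embryo is exposed. It binds a receptor made of a specific alpha chain and a beta chain shared with other cytokines, and the bound receptor signals through JAK kinases and STAT factors. A blastocyst consists of an outer trophectoderm, which forms the placenta, and an inner cell mass, which forms the fetus, and the labels state that each demi-embryo held cells of both. The count table names genes by Ensembl identifiers and does not pair them with symbols, so no receptor, pathway or lineage gene is named, the labelled cell types were not checked against markers, and no sequence is shown.

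The first question was whether CSF2 changed the makeup of the libraries. Total counts ran from 3906252 through a median of 5176000 to 10326829 with CSF2, and from 3940101 through 6124000 to 7544831 with vehicle. The means were 6004000 ± 2307000 (SD, n = 12) and 5884000 ± 1154000 (SD, n = 14). The ranges overlapped, and the only 3 libraries above all vehicle libraries were CSF2 replicates 1, 26 and 28. The number of genes read ran from 1095 through a median of 3312 to 4733 with CSF2, and from 1646 through 3580 to 5190 with vehicle. Its means were 3257 ± 1041 (SD, n = 12) and 3424 ± 1026 (SD, n = 14), a difference of -166.8 genes that was smaller than the spread within either group (two-sided permutation test, p = 0.685). Each library was also thinned to 3906252 counts, after which CSF2 embryos read 3167 ± 985.8 genes and vehicle embryos 3320 ± 973.4 (p = 0.696 by the same permutation test).

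CSF2 replicate 25 stood at the low end of the number of genes read, with 1095, while the next CSF2 library had 2464. Without that library the CSF2 mean was 3454 ± 825.8 (SD, n = 11), and the difference from vehicle turned to 29.71 genes (two-sided permutation test, p = 0.946). The vehicle group also held libraries with few genes read, replicate 24 with 1646 and replicate 19 with 1851. The 100 highest genes of a library took 42.6% ± 3.57 of its counts in CSF2 embryos, against 43.5% ± 6.23 in vehicle embryos (permutation test, two-sided, p = 0.663). The standard deviation was larger with vehicle, where the share ran from 36.07% to 55.09%, against 37.78% to 50.99% with CSF2; the difference in spread was not tested. Total counts, which the choice of libraries used, are given as a description. The other 4 measures of makeup each had a Benjamini-Hochberg adjusted p of 0.86, adjusted over 5 measures with total counts among them. Among these 4, the mean correlation given next is also only a description, since its values share pairs of libraries.

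The likeness between embryos that shared a treatment lay within the range of that between embryos of different treatments. Over the 2604 genes tested for abundance, the Spearman correlation between 2 libraries averaged 0.3004 in the 66 pairs within CSF2, 0.3059 in the 91 pairs within vehicle and 0.3032 in the 168 pairs across the treatments. Pairs within CSF2 ran from 0.219 to 0.427, pairs within vehicle from 0.2299 to 0.437 and pairs across from 0.2005 to 0.4421. These are correlations across genes, which are not independent replicates, and pairs share libraries, so they are given as a description. An embryo's mean correlation with its own treatment group was 0.3 ± 0.0282 (SD, n = 12) after CSF2, against 0.306 ± 0.0295 (SD, n = 14) after vehicle (permutation test, two-sided, p = 0.634). These means share pairs of libraries and were not recomputed under permuted treatments, so that p is no valid test of likeness within groups. CSF2 replicate 25 had the lowest mean, 0.24 with the other CSF2 embryos and 0.2407 with the vehicle embryos.

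**Figure D1:**
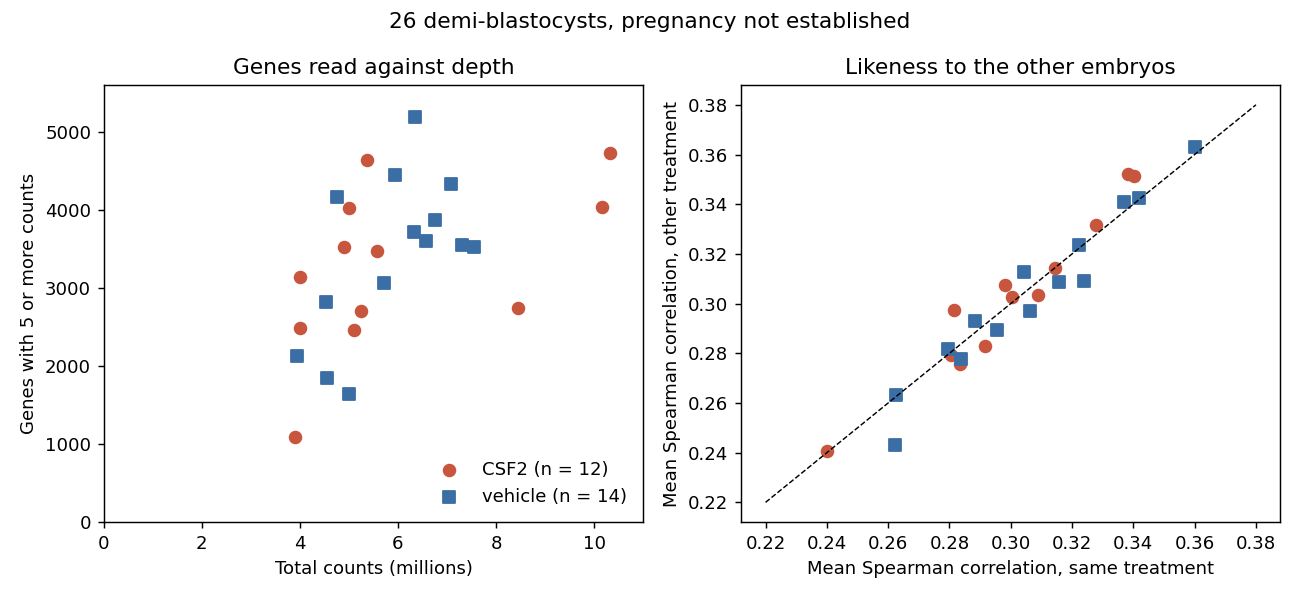
The left panel plots the genes read per library against its total counts (in units of 1000000), and the right panel plots each library's mean Spearman correlation with libraries of the other treatment against that with its own; circles are the 12 CSF2 libraries and squares the 14 vehicle libraries. The 2 kinds of point overlap in both panels, the right-hand points lie along the dashed line of equal values, and CSF2 replicate 25 is the lowest point on the left, at 1095 genes.

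Each library read only a part of the genes read in the group as a whole. With 1 library per embryo, a gene not expressed and a gene missed in making the library cannot be told apart. Of the 24616 genes listed, 11386 were read in at least 1 of the 26 libraries, 2153 of them in a single library and 3690 in 2 to 5 libraries. At the other end, 152 genes were read in all 26 libraries and held a median of 41.35% of a library's counts, from 34.03% to 53.15%. The 12 CSF2 libraries had 241 genes in common and the 14 vehicle libraries 271. Genes read with CSF2 and in no vehicle library numbered 1269, of which 947 were read in a single library and none in more than 6 of 12. Genes read with vehicle and in no CSF2 library numbered 1841, of which 1206 were read in a single library and none in more than 8 of 14. No gene was therefore read throughout one treatment and unread in the other.

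Gene abundance was compared by edgeR's quasi-likelihood test with Benjamini-Hochberg adjustment, on counts scaled by TMM (edgeR's scaling factors for library composition). None of the 2604 genes tested passed an adjusted p of 0.05 (0 called, 0%), and the smallest adjusted p was 1. At an unadjusted p below 0.05 there were 21 genes, 16 higher and 5 lower with CSF2, or 0.806% of those tested; scaled by library totals without TMM these were 10 higher and 7 lower. No gene had all CSF2 embryos on one side of all vehicle embryos (0 of 2604, 0%). limma voom with sample quality weights also called 0 genes (0%), with 141 at an unadjusted p below 0.05 and a smallest adjusted p of 0.119. DESeq2 called 1 gene, lower with CSF2 (0.0384%), with 63 at an unadjusted p below 0.05. The other setting of edgeR's quasi-likelihood fit, which adjusts the deviance for its bias at low counts, called 4 genes, 3 higher and 1 lower (0.154%). This bias-adjusted fit had 185 genes at an unadjusted p below 0.05, 107 higher and 78 lower, against 21 in the default fit. The number of small p-values thus depended strongly on this setting. Those 4 were the genes with the smallest p in the fit that called none. Because each library is bulk RNA of many cells, fewer cells of a type and less RNA per cell cannot be told apart in any value below.

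The precision of each change varied with how many embryos read the gene. Over all 2604 genes the median log2 change (CSF2 minus vehicle) was 0.03 (-0.01 when scaled by library totals), with quartiles of -0.54 and 0.59, and the median standard error was 1.48. Among the 152 genes read in all 26 embryos the median log2 change was 0.05, the quartiles were -0.17 and 0.28, and the median standard error was 0.56. In that class 84 genes had a fitted value above 0 and 67 one below (at 3 decimals), and the values ran from -1.23 to 1.06. Only 1 of the 152 had an unadjusted p below 0.05. The 854 tested genes read in 11 to 15 embryos had a median standard error of 1.66 and gave 14 of the 21 genes with an unadjusted p below 0.05. Those read in 16 to 20 embryos (911 genes) and in 21 to 25 embryos (687 genes) gave 3 each.

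The intervals of the main fit bound what that fit could show. The 95% interval of the log2 change lay within 1 of 0 on both sides, so that a doubling or halving fell outside it, for 40 of the 2604 genes, 39 of them among the 152 genes read in every embryo. It lay within 2 of 0 for 270 genes, of which 119 belonged to the 152 and 150 to the class read in 21 to 25 embryos. For the remaining genes the interval did not exclude a change of that size in at least 1 direction. Spread between embryos within a treatment was alike in size: over the 152 genes the median coefficient of variation of CPM (counts per 1000000 of the library total) was 61.34% with CSF2 and 61.39% with vehicle, and 85 of the 152 were more variable with CSF2. Mean levels of these genes ran from 11.93 CPM through a median of 842.3 to 54560.

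**Figure D2:**
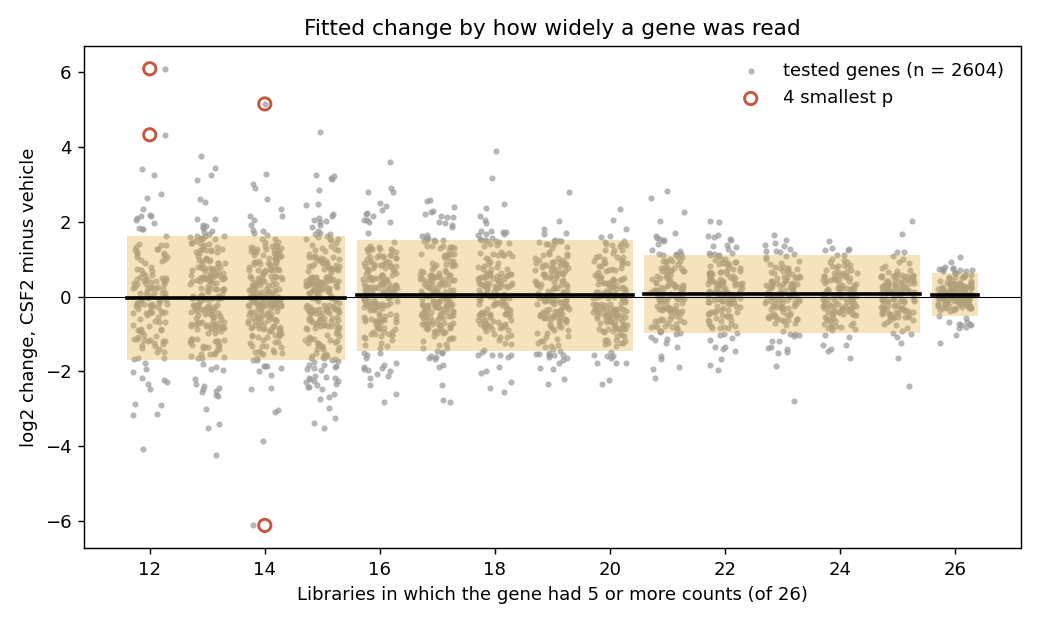
Each grey point is 1 of the 2604 tested genes, with the number of the 26 libraries that read it on the horizontal axis and its log2 change (CSF2 minus vehicle) on the vertical axis; black lines are the medians of 4 classes of breadth, bands reach 1 median standard error to either side, and circles mark the 4 genes with the smallest p. The band narrows from 1.66 in the leftmost class to 0.56 in genes read in all 26 libraries, the medians stay near 0, and the circled genes were read in 12 or 14 libraries.

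The filter on low counts left no tested gene that was read in 10 or fewer embryos, so genes carried by few embryos are outside the next figures. Within the tested set, a single embryo seldom supplied most of a gene's signal over the 26 libraries. The highest of the 26 libraries held a median of 20.54% of a tested gene's summed CPM, and 10.1% for the 152 genes read in all. It held more than 50% in 46 tested genes, or 1.77%. That highest library was a CSF2 embryo for 1277 of the 2604 genes, with vehicle replicate 24 the highest for 217 and CSF2 replicate 7 for 205.

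The genes given next had the smallest p in each direction, and none passed the main test. ENSBTAG00000011358 was read in 8 of 12 CSF2 embryos, with levels from 0 through a median of 122 to 1178 CPM. With vehicle it was read in 6 of 14 embryos, with levels from 0 through a median of 0 to 93.5 CPM. The 6 highest embryos were all CSF2 embryos, but CSF2 replicates 3, 5 and 6 were at 0 like 8 of the vehicle embryos, so the groups overlapped. Means were 253.9 ± 373.1 CPM (SD, n = 12) and 8.55 ± 24.7 CPM (SD, n = 14), and the log2 change was 5.15 with a standard error of 1.65 and a 95% interval of 1.92 to 8.38. The unadjusted p was 0.00179 and the adjusted p was 1 (edgeR quasi-likelihood test); the bias-adjusted fit gave an adjusted p of 0.00956 and DESeq2 0.236. Over all alternatives the adjusted p of this gene lay between 0.000293 and 1.

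Single embryos moved these values. CSF2 replicate 25, the library with the fewest genes read, held 38.65% of the summed CPM of ENSBTAG00000011358 in the CSF2 group, and without it the log2 change was 4.43 and the bias-adjusted fit no longer called the gene (adjusted p = 0.0547). Vehicle replicate 18 held 78.13% of the vehicle sum at 93.5 CPM. Without that embryo the log2 change was 7.29, edgeR's adjusted p was 0.194 and DESeq2's was 0.000293. Of the 26 refits that each left out an embryo, edgeR called the gene in 0, DESeq2 in 6 and the bias-adjusted fit in 25.

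ENSBTAG00000048234 was read in 8 of 12 CSF2 embryos and in 4 of 14 vehicle embryos. Its levels ran from 0 through a median of 39.56 to 826.1 CPM with CSF2 and from 0 through 0 to 15.23 CPM with vehicle. All 8 CSF2 embryos that read it stood above every vehicle embryo, while CSF2 replicates 1, 3, 5 and 9 were at 0 as were 8 vehicle embryos. Means were 159.4 ± 252 CPM (SD, n = 12) and 2.65 ± 5.31 CPM (SD, n = 14). The log2 change was 6.09 with a standard error of 1.97 (edgeR quasi-likelihood test, unadjusted p = 0.00196, adjusted p = 1), and the adjusted p was 0.00956 in the bias-adjusted fit and 0.0501 in DESeq2. CSF2 replicate 25 was again the highest embryo, with 43.2% of the group's sum, and without it the log2 change was 5.18 and the bias-adjusted p was 0.0547. Over all alternatives the adjusted p lay between 0.00663 and 1.

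ENSBTAG00000016977 had the smallest p among genes lower with CSF2. It was read in 3 of 12 CSF2 embryos, from 0 through a median of 0.128 to 5.24 CPM, and in 11 of 14 vehicle embryos, from 0 through 12.14 to 312.3 CPM. No CSF2 embryo exceeded 5.24 CPM and 10 vehicle embryos did, but vehicle replicates 14, 15 and 17 were at 0. Means were 0.793 ± 1.5 CPM (SD, n = 12) and 56.7 ± 108.3 CPM (SD, n = 14), and vehicle replicates 22 and 18 held most of the latter at 312.3 and 308.3 CPM. The log2 change was -6.12 with a standard error of 2.07 (edgeR quasi-likelihood test, unadjusted p = 0.00316, adjusted p = 1), and the adjusted p was 0.0361 in the bias-adjusted fit and 0.0501 in DESeq2. Over all alternatives it lay between 0.000967 and 1. The filter on low counts kept the gene in only 15 of the 26 refits without an embryo, and the bias-adjusted fit called it in 2 of those.

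The gene that DESeq2 called was chosen after its values were seen. ENSBTAG00000045772 was read in 5 of 12 CSF2 embryos, from 0 through a median of 0.806 to 517.5 CPM, and in 13 of 14 vehicle embryos, from 0.881 through 33.42 to 732.5 CPM. Apart from CSF2 replicate 5 at 517.5 CPM, the CSF2 embryos lay at or below 14.9 CPM, a level that 8 vehicle embryos exceeded. The means were 46.1 ± 148.5 CPM (SD, n = 12) and 150.6 ± 241.6 CPM (SD, n = 14), and replicate 5 held 93.55% of the CSF2 sum. DESeq2 gave a log2 change of -5.18 with an adjusted p of 0.00317, whereas edgeR gave -1.62 with a standard error of 1.64 and an adjusted p of 1. Without CSF2 replicate 5 the edgeR log2 change was -5.48, near that of DESeq2, still with an adjusted p of 1. DESeq2 called the gene in 26 of 26 refits that left out an embryo, edgeR and its bias-adjusted fit in 0. Without CSF2 replicate 5 the DESeq2 log2 change was -5.61, against -5.18 with it, so that embryo moved DESeq2 little and edgeR much. DESeq2 ran with its default handling of outlying counts, and whether this changed the count of CSF2 replicate 5 was not tested. Over all alternatives the adjusted p lay between 0.000779 and 1.

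The remaining gene of the 4 in the bias-adjusted fit was read in 7 of 12 CSF2 and 5 of 14 vehicle embryos, at 278.7 ± 648 CPM and 17.9 ± 43.8 CPM, with an adjusted p of 0.0266. CSF2 replicate 25 held 67.83% of its CSF2 sum. That embryo was thus the highest CSF2 library for all 3 genes the bias-adjusted fit called higher, and without it the fit called 1 gene in all. The gene called was not ENSBTAG00000011358, ENSBTAG00000048234 or ENSBTAG00000016977, whose adjusted p in that refit was 0.0547, 0.0547 and 0.0737. The count was also 1 without vehicle replicate 14, and over the 26 refits it ran from 1 to 6, the highest without CSF2 replicate 6.

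**Figure D3:**
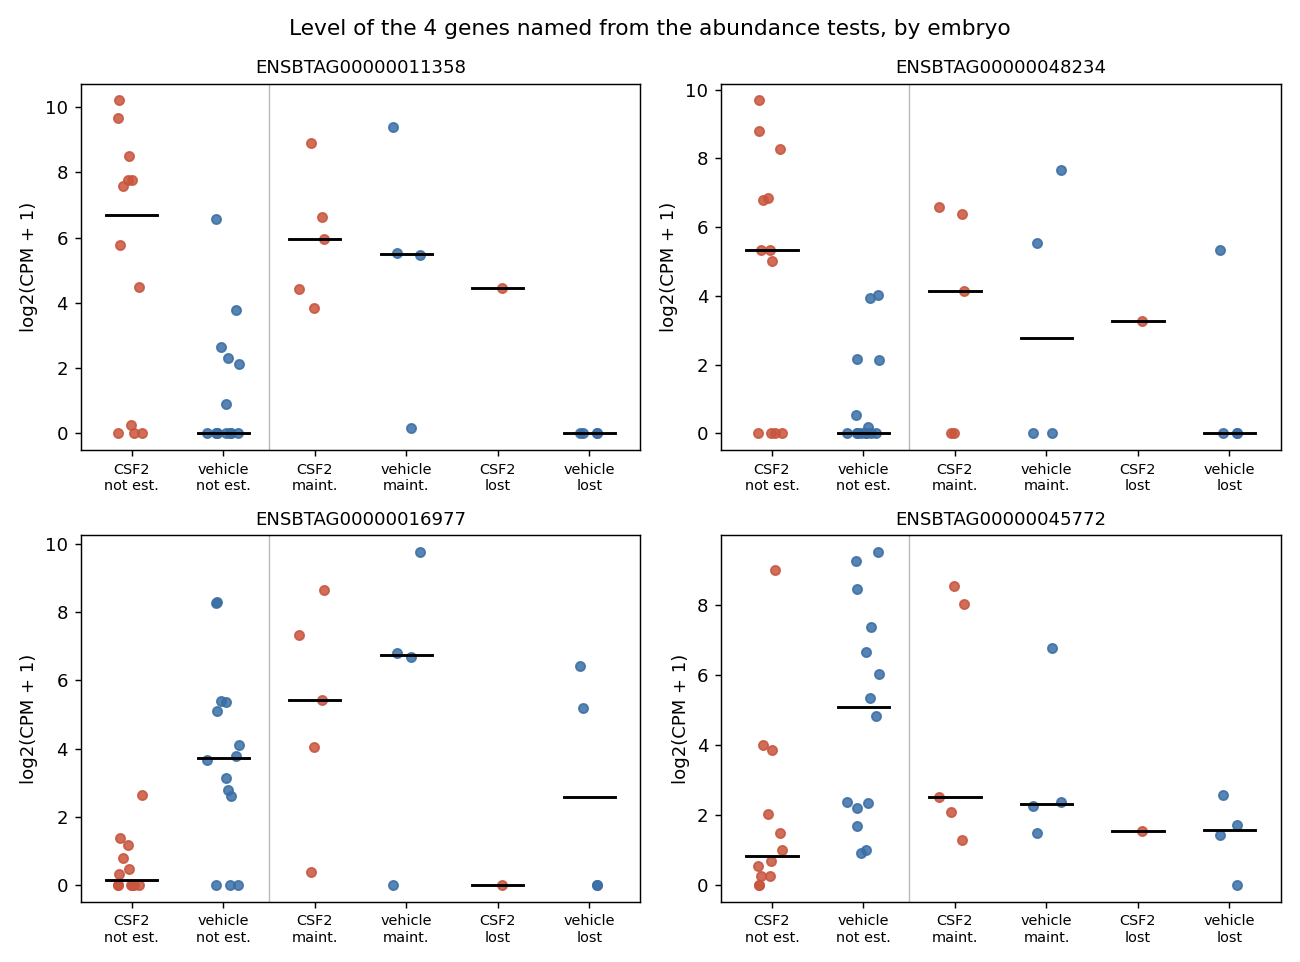
Each panel shows a gene as log2(CPM + 1) per embryo, with horizontal bars at group medians; the 12 CSF2 and 14 vehicle embryos without a pregnancy stand left of the vertical line, and the maintained (5 and 4) and lost (1 and 4) embryos right of it. In the left part the top genes have CSF2 medians of 122 and 39.56 CPM against 0 with vehicle, and all 4 panels have embryos of both treatments near 0 or at like levels.

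Whether a gene was read at all gave a second readout, in which a library counts once for a gene whatever the level there. The libraries still differed in how many genes they read, from 1095 to 5190, so they did not weigh alike on counts over genes. Fisher's exact test on the number of embryos that read each gene called 0 of 7547 genes (0%) after Benjamini-Hochberg adjustment, and the smallest adjusted p was 1. At an unadjusted p below 0.05 there were 170 genes, or 2.25%, of which 61 were read more often with CSF2 and 109 more often with vehicle. That split also moved with single embryos, from 41 and 153 without CSF2 replicate 28 to 103 and 92 without vehicle replicate 21, and it was 98 and 108 without CSF2 replicate 25. With 1 or more counts as the minimum it was 90 and 85. Over all 7547 genes, 3343 were read in a larger share of CSF2 embryos and 4204 in a larger share of vehicle embryos, figures that were 2974 and 4397 without CSF2 replicate 28 and 3741 and 3588 without vehicle replicate 21.

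ENSBTAG00000021505 was read in 8 of 12 CSF2 embryos and in 1 of 14 vehicle embryos (Fisher's exact test, two-sided, p = 0.00293, adjusted p = 1). Its levels ran from 0 through 36.69 to 117.1 CPM with CSF2, and the 8 embryos that read it lay between 26.27 and 117.1 CPM. With vehicle the median was 0, and vehicle replicate 18 alone stood at 444.5 CPM, above every CSF2 embryo, with 99.79% of the group's sum. The means were 48.4 ± 46.9 CPM (SD, n = 12) and 31.8 ± 119 CPM (SD, n = 14), and the vehicle mean without replicate 18 was 0.0732 CPM. ENSBTAG00000003174 was read in 6 of 12 CSF2 embryos and in 0 of 14 vehicle embryos (Fisher's exact test, two-sided, p = 0.00401, adjusted p = 1), a p that 3 genes shared in this direction. CSF2 replicates 28, 26 and 7 had 169.9, 101.7 and 58.61 CPM, the other CSF2 embryos lay at or below 5.79 CPM, and the vehicle embryos had 4 counts in all.

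In the other direction, ENSBTAG00000010727 was read in 0 of 12 CSF2 embryos and in 8 of 14 vehicle embryos (Fisher's exact test, two-sided, p = 0.00224, adjusted p = 1). The CSF2 embryos together had 1 count, in replicate 9. With vehicle the levels ran from 0 through a median of 4.06 to 869.6 CPM, with a mean of 104.7 ± 229.2 CPM (SD, n = 14), and replicate 19 held 59.34% of the sum. Vehicle replicates 11, 14, 17, 18 and 22 were at 0, the level of 11 of the CSF2 embryos. ENSBTAG00000006918 was read in all 14 vehicle embryos and in 6 of 12 CSF2 embryos (Fisher's exact test, two-sided, p = 0.00401, adjusted p = 1). Its levels ran from 10.66 through 286.5 to 1009 CPM with vehicle and from 0 through 62.11 to 302.7 CPM with CSF2. The CSF2 embryos fell apart into 6 between 123.7 and 302.7 CPM and 6 at or below 0.501 CPM, the former within the vehicle range and the latter below all of it. Means were 107 ± 121.1 CPM (SD, n = 12) and 330.3 ± 275.6 CPM (SD, n = 14), and the fitted log2 change was -1.59 with a standard error of 1.25 (edgeR quasi-likelihood test, adjusted p = 1).

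**Figure D4:**
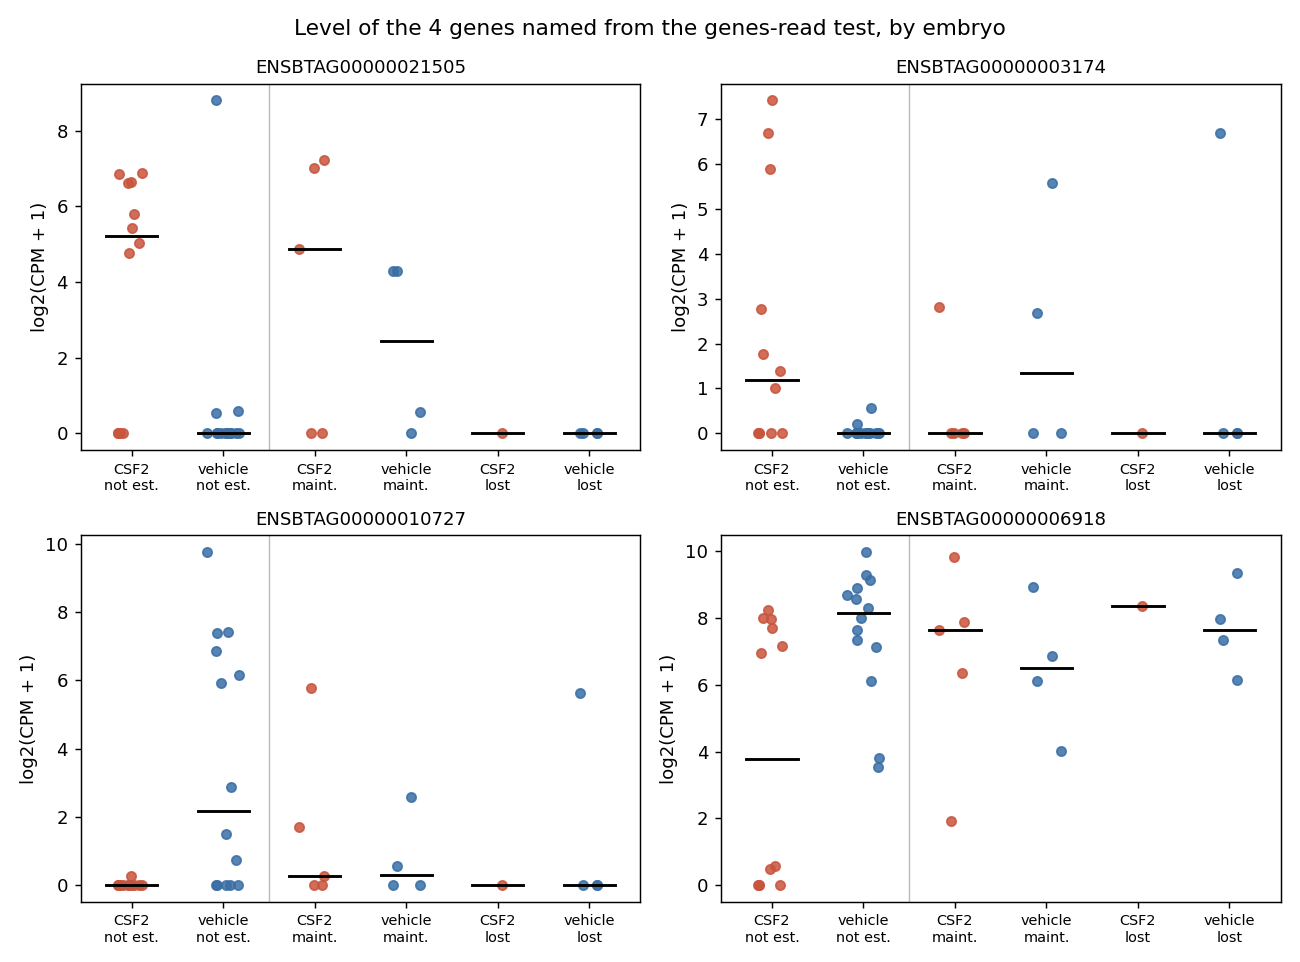
The panels show log2(CPM + 1) per embryo, with bars at group medians, for the 2 genes per direction with the smallest p for being read in one treatment more often. In the CSF2 direction the second was the first by identifier of 3 genes with the same p. Groups are ordered as not established, maintained and lost, CSF2 before vehicle in each. The upper genes were read in 8 and 6 of 12 CSF2 embryos and in 1 and 0 of 14 vehicle embryos, the lower genes in 0 and 6 of 12 and in 8 and 14 of 14. Among maintained embryos each of the 4 genes was read in at least 1 embryo of each treatment.

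The same treatments were next compared in embryos that shared no library with these, those whose transferred part gave a pregnancy still present at day 60 (maintained, 5 CSF2 and 4 vehicle libraries above 1000000 counts). For ENSBTAG00000011358 the 5 CSF2 embryos had 13.42, 20.43, 60.75, 97.85 and 473.6 CPM and the 4 vehicle embryos 0.13, 42.84, 45.11 and 670.8 CPM. The groups overlapped, with the highest and the lowest embryo both in vehicle, and the difference in mean log2(CPM + 1) was 0.81 (exact permutation test, two-sided, p = 0.73). Mean CPM had the opposite order, 133.2 ± 193.3 with CSF2 (SD, n = 5) and 189.7 ± 321.4 with vehicle (SD, n = 4), as did the log2 change of -0.74 fitted by edgeR in maintained embryos (adjusted p = 1). ENSBTAG00000048234 had 0, 0, 16.57, 81.68 and 95.4 CPM with CSF2 and 0, 0, 45.6 and 201.5 CPM with vehicle (difference 0.12, exact permutation test, two-sided, p = 1), and its fitted log2 change was also of the opposite sign, -0.76 (edgeR, adjusted p = 1). ENSBTAG00000016977 had 0.311, 15.43, 42.12, 159.6 and 398.8 CPM with CSF2 and 0, 101.7, 111.2 and 863.8 CPM with vehicle (difference -0.65, exact permutation test, two-sided, p = 0.762). Its fitted log2 change in maintained embryos, -1.18, had the same sign as without a pregnancy. Here 4 of 5 maintained CSF2 embryos exceeded 5.24 CPM, the highest level of this gene among CSF2 embryos without a pregnancy.

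ENSBTAG00000045772 had 1.44, 3.27, 4.71, 259.8 and 370.7 CPM in maintained embryos with CSF2 and 1.79, 3.79, 4.24 and 108.6 CPM with vehicle, a difference of 1.27 in the direction opposite to that without a pregnancy (exact permutation test, two-sided, p = 0.46). For the genes named from reading, the differences in maintained embryos were 1.53 for ENSBTAG00000021505, -1.5 for ENSBTAG00000003174, 0.75 for ENSBTAG00000010727 and 0.24 for ENSBTAG00000006918 (exact permutation tests, two-sided, p from 0.429 to 0.905). The last 3 had the opposite sign to that without a pregnancy. ENSBTAG00000006918 was read in all 5 CSF2 and all 4 vehicle embryos, from 2.8 to 914 CPM and from 15.15 to 485 CPM. For the remaining gene of the bias-adjusted fit the difference was 0.94 (exact permutation test, two-sided, p = 0.651) and the fitted log2 change was 2.37. Both had the same sign as without a pregnancy. Of 9 such tests none passed (adjusted p = 1 for each), and 5 against 4 embryos allow no p below 0.0159. Over all genes, edgeR's quasi-likelihood test in the maintained embryos alone called 2 of 4056, both lower with CSF2 (0.0493%), with 75 at an unadjusted p below 0.05; neither is among the genes named from abundance, and this fit was not repeated with embryos left out. A test of the difference between the outcomes follows, since a p that misses the threshold here does not show that the treatments acted alike.

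Embryos whose pregnancy was lost between the examinations numbered 1 with CSF2 and 4 with vehicle, too few for a test. ENSBTAG00000011358 stood at 20.72 CPM in the CSF2 embryo and at 0 in all 4 vehicle embryos. ENSBTAG00000016977 stood at 0 in the CSF2 embryo and at 0, 0, 35.41 and 83.78 CPM with vehicle. ENSBTAG00000006918 was read in all 5, at 329.1 CPM with CSF2 and from 69.49 to 657.2 CPM with vehicle.

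Whether the effect of CSF2 differed between embryos without a pregnancy and maintained embryos was tested as an interaction of treatment and outcome over 7820 genes. The filter for this test used the groups of outcome and treatment and kept more genes than the 2604 of the main comparison. Shares of genes in these tests are thus over unlike sets and cannot be set against each other. edgeR's quasi-likelihood test called 0 genes (0%), with a smallest adjusted p of 0.135. At an unadjusted p below 0.05 there were 1069 genes, or 13.7%, of which 687 had the higher CSF2 effect in maintained embryos and 382 the lower. That split moved with single embryos, from 512 and 539 without maintained CSF2 replicate 3 to 894 and 341 without maintained vehicle replicate 7. DESeq2 gave an adjusted p for 5698 genes and called 511 of them (8.97%), 386 with the higher effect in maintained embryos and 125 with the lower. The tools thus differed on this question, and the arm of maintained embryos holds 5 and 4 libraries. Among the genes named above the edgeR adjusted p of the interaction was 0.371 for ENSBTAG00000011358, 0.444 for ENSBTAG00000048234, 0.688 for ENSBTAG00000016977 and 0.85 for ENSBTAG00000045772. It was 0.298 for ENSBTAG00000010727, 0.301 for ENSBTAG00000003174, 0.893 for ENSBTAG00000006918 and 1 for ENSBTAG00000021505. For the remaining gene of the bias-adjusted fit the edgeR adjusted p of the interaction was 0.988.

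Set side by side, the fitted changes in the outcomes had no order in common. Of 2458 genes tested in both, 1227 had the same sign, or 49.92%, and across genes Pearson's r was 0.003 and Spearman's rho -0.002. Among the 152 genes read in all 26 embryos, whose changes were the most precise, 80 had the same sign, or 52.63%, with a Pearson's r of 0.063. Of the 20 genes with the smallest p in embryos without a pregnancy, 11 had the same sign in maintained embryos. The 2 sets of embryos share no library, and the figures are a description across genes with no test. Without a pregnancy, the SD of the fitted changes over all tested genes was 1.02, below their median standard error of 1.48. Among the 152 genes these were 0.39 and 0.56. The standard errors of the main fit thus exceeded the spread of its own fitted changes, and whether they and the intervals are too wide was not tested. With changes this imprecise, and 5 against 4 maintained embryos, the figures cannot tell whether CSF2 acted alike or differently in the outcomes.

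**Figure D5:**
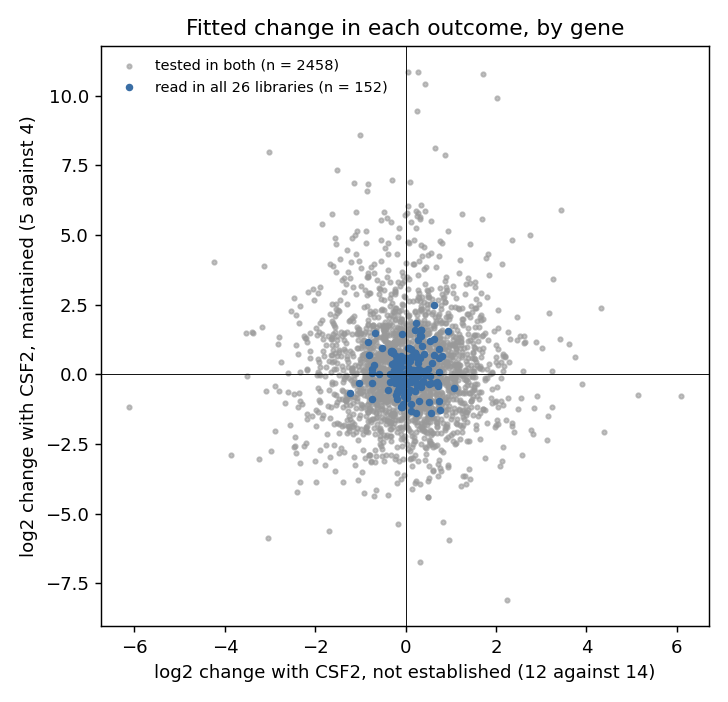
Each point is 1 of 2458 genes, with its log2 change (CSF2 minus vehicle) in embryos without a pregnancy (12 against 14) on the horizontal axis and in maintained embryos (5 against 4) on the vertical axis; blue points are the 152 genes read in all 26 libraries without a pregnancy. The cloud is centred near 0 on both axes with no slope, 1227 genes lie in the quadrants of equal sign, and the blue points lie close to the centre.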

How the data were processed

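The authors deposited 1 table of unnormalized counts per Ensembl gene for the whole series, from demi-blastocyst total RNA made into NuGEN Ovation SoLo libraries, per the labels' protocols. The submitters' processing notes name edgeR and the builds UMD3.1 and bosTau8 without a role, with aligner, counter, strand use and duplicate removal not given in the sources used here. Columns were matched to samples by title, and outcome and treatment came from the labels. The members and the gene lists were chosen with earlier results of these data known.

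Counts were filtered by filterByExpr on treatment and tested in R 4.3.3 with edgeR 4.0.16 (TMM, quasi-likelihood F test, robust, Benjamini-Hochberg at 0.05) on the 26 libraries alone. TMM factors ran from 0.782 (CSF2 replicate 25) to 1.126 (vehicle replicate 15), and the common dispersion was 4.75. The interaction was fitted on not established and maintained libraries above 1000000 counts, with filterByExpr on the groups of outcome and treatment. DESeq2 1.42.0, limma 3.58.1 and sva 3.50.0 served as alternatives, with other scalings, filters, covariates, library sets and each library left out. Reading (5 or more counts, in 3 to 23 of the 26 libraries) was tested by Fisher's exact test per gene. Makeup was tested with 100000 permutations in Python 3.11.15 with scipy 1.17.1. Levels are CPM of the library total. The scripts were tested on simulated data, the edgeR fit at dispersions below the 4.75 of these data, so its recovery of changes at 4.75 was not tested.

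None of 24616 identifiers matched the supplied RefSeq table (0 matched), so the planned gene lists, cell type markers, share of mitochondrial genes and naming by symbol were not run, and genes sharing reads with copies or overlapping genes were not marked. In their place at most 2 identifiers per direction and test are given, those with the smallest p (ties in order of identifier), and in addition the gene DESeq2 called. The fit and the tests in maintained embryos alone, DESeq2 and the bias-adjusted fit with each library left out, and makeup without CSF2 replicate 25 were added after seeing the data. Intervals and p-values cover the spread between these embryos; with no batch given, none was modelled.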

Additional observations from a re-analysis of the deposited data

Results flagged for a closer look

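Levels of the named genes were searched for a single embryo far from the rest in each group of 4 to 10 embryos. Of 25 such groups 5 had one. Chance gives about 1 in 20 for continuous values, a rate that does not carry over to genes at 0 in most embryos. In lost vehicle embryos, ENSBTAG00000048234 stood at 39.1 CPM, ENSBTAG00000003174 at 102.3 CPM and ENSBTAG00000010727 at 48.45 CPM in replicate 6, each with the other 3 embryos at 0. In the same group the remaining gene of the bias-adjusted fit stood at 13.01 CPM in replicate 3 and at 0 in the others. In maintained CSF2 embryos, ENSBTAG00000003174 stood at 6.06 CPM in replicate 3 and at 0 in the other 4. Every case is a gene at 0 in all embryos of the group but 1, which this search marks whatever the level, and 3 of the 5 cases are lost replicate 6.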

How the results depend on the processing

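The count of genes called by abundance was 0 with voom, DESeq2 size factors, library totals, 5 or more counts in at least 6 libraries, all 45 libraries with outcome as a term, the number of genes read as a term, 2 surrogate variables and an adjusted p of 0.10, and ran from 0 to 0 with each embryo left out. It was 1 with DESeq2, 4 with the bias-adjusted deviance, 19 (16 higher, 3 lower, none of them among the 4 genes of the bias-adjusted fit) with all 29 libraries, and 3126 of 12059 (1362 higher, 1764 lower) with no filter; the cause was not tested. With each embryo left out in turn DESeq2 called 1 to 3 genes and the bias-adjusted fit 1 to 6. Genes called by reading numbered 0 at 1 or 20 counts, with all 29 libraries, after thinning, and 0 to 0 with each embryo left out. The interaction called 0 to 0 genes with each maintained embryo left out, 2 (both lower) with the libraries under 1000000 counts and 511 with DESeq2; the cause was not tested. With all 29 libraries the difference in total counts turned to -296900 and that in the share of the 100 highest genes to 1.193 points. Without CSF2 replicate 25 the differences turned to 29.71 genes read, 35.38 after thinning and 0.006572 in mean correlation. ENSBTAG00000048234 and ENSBTAG00000016977 were filtered out with all 29 libraries, and the fitted direction of the 4 genes named from abundance did not turn in any setting that fitted them. No paired analysis was possible because the title numbers run through both treatments of an outcome, so the groups share none. Of the genes listed, 13230 were read in none of the 26 libraries and were not compared, and for 40 of the 2604 tested the 95% interval of the log2 change lay wholly within 1 of 0.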
